A study of Anopheles stephensi with 4 samples.

Results

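Core genes, meaning reference genes that stood at 300 FPKM or more in every tissue measured, numbered 116 of 12340 (0.940%) in adult females of the malaria mosquito Anopheles stephensi. FPKM is the number of sequenced fragments divided by transcript length and library size, so it compares levels between genes of different length. The tissues were midgut, fat body, Malpighian tubules and ovary of sugar-fed females, with 1 paired-end RNA library each, run on 2 lanes. The lanes were technical replicates, and strain, genotype, age and the number of females behind each library are not given in the sources used here. Each tissue rests on 1 library, so differences carry no replicate error and no p-values. The members were chosen by these same FPKM levels, so every level and every difference between tissues of these genes is a description.

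The midgut digests the meal, the fat body stores fat and makes blood proteins, the Malpighian tubules make urine, and the ovary builds eggs. Genes that are abundant in every tissue of an animal usually serve work that no cell can do without. Known examples are the proteins of the ribosome, the factors that load it and move it along the messenger, the enzymes of the mitochondrial respiratory chain, actin and tubulin. The files give identifiers only, and 0 of the 15394 genes of the RefSeq table at hand carried one of them, so which of these functions the 116 genes serve was not determined. For the same reason the labelled tissues could not be checked against marker genes, and no protein or promoter sequence could be matched to a member.

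The libraries held an estimated 27490192 (midgut) to 36316831 (Malpighian tubules) fragments, and every core gene rested on at least 4152 of them in each tissue. All 180 transcripts of the core genes had a completed estimate in all tissues. The bounds that the authors gave around the FPKM of a core gene were narrow, reaching to either side of the level by a median of 2.23% in midgut, 2.26% in fat body, 2.64% in the Malpighian tubules and 2.51% in ovary. The widest were those of ASTEI06097 in the Malpighian tubules, from 341 to 1739 FPKM around a level of 975 FPKM. The bounds cover the authors' measurement error and not the spread between mosquitoes. Deposited FPKM summed to 1249952 over genes, intergenic and repeat loci in midgut, 920066 in fat body, 580157 in the Malpighian tubules and 443829 in ovary, so a difference between tissues depends on the scaling, and results are given both as deposited and as TPM, in which each tissue sums to 1000000.

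Most genes that missed the limit in a single tissue missed it in ovary. The limit was strictest there, since 1 FPKM equals 2.25 TPM in the ovary library, against 0.80 TPM for midgut. How far the counts and percentages below follow from this scaling was not tested. A further 67 genes reached 300 FPKM in the other tissues and missed it in ovary only, against 11 that missed it in the Malpighian tubules only, 1 in midgut only and 0 in fat body only. The core genes were 26.1% of the 445 genes at 300 FPKM or more in midgut, 30.1% of 385 in fat body, 36.4% of 319 in the Malpighian tubules and 71.6% of 162 in ovary. The members just inside the limit were ASTEI00927 and ASTEI01688, both at 305 FPKM in ovary. The genes just outside were ASTEI06153 at 297 FPKM and ASTEI10045 at 294 FPKM in ovary, with at least 310.0 FPKM in each of the other tissues. For 9 members the lower bound fell under 300 FPKM in some tissue, and for 8 genes outside the set the upper bounds reached it everywhere. The gene missing the limit in midgut only was ASTEI08034, which is listed at 0 there without a completed estimate, and which stood at 1066 FPKM in fat body, 893 in the Malpighian tubules and 378 in ovary.

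**Figure D1:**
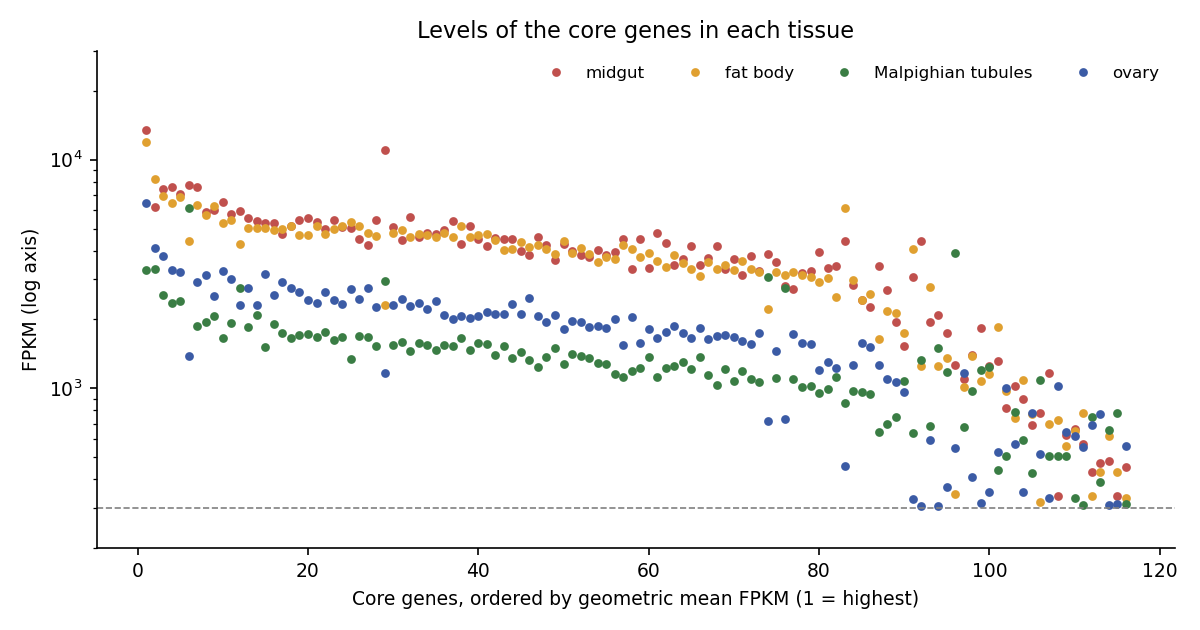
FPKM (log axis) of each of the 116 core genes in midgut, fat body, Malpighian tubules and ovary, ordered by the geometric mean over tissues, with 1 point per gene and tissue and the limit of 300 FPKM as a dashed line. For most of the set the tissues run as parallel bands, midgut and fat body together at the top, ovary below and Malpighian tubules lowest, and the bands dissolve among the least abundant members.

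These few genes held between 28.2% and 45.8% of the FPKM of a tissue. The share was 35.8% in midgut, 44.8% in fat body, 28.2% in the Malpighian tubules and 45.8% in ovary. With the members fixed it does not depend on the scaling between tissues, but the choice of members does. The 157 genes at 300 TPM or more in every tissue held 41.4%, 48.3%, 32.6% and 48.0%, in the same order. With each of the 116 core genes at the authors' lower or upper bound, the share was 34.8% to 36.8% in midgut and 43.6% to 46.1% in fat body. For these core genes it was 27.2% to 29.3% in the Malpighian tubules and 44.5% to 47.1% in ovary. Their share of the sequenced fragments, which does not divide by transcript length, was lower, at 24.0% in midgut, 29.0% in fat body, 15.7% in the Malpighian tubules and 24.4% in ovary. Genes that reached 300 FPKM in 1 to 3 tissues (577 genes) filled 42.1% of the FPKM in midgut and 34.2% in the Malpighian tubules, against 25.6% in fat body and 12.5% in ovary. The 5948 genes expressed in all tissues (1 FPKM or more) but below 300 FPKM in each held 34.1% in ovary and 16.01% in midgut. Bulk libraries cannot tell fewer cells of a type from less RNA per cell, and a share must fall when another set takes more.

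**Figure D2:**
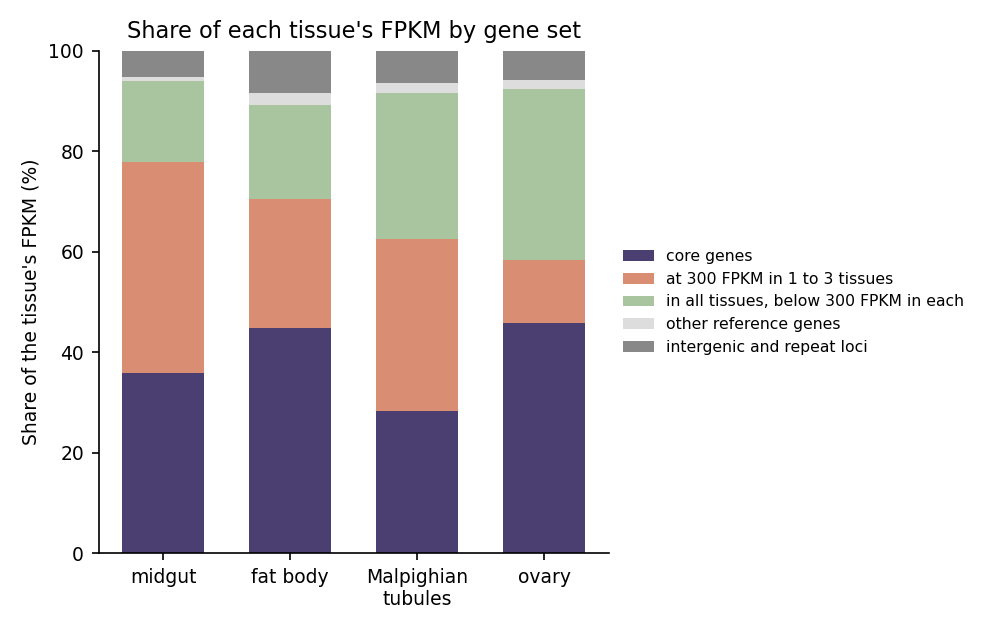
Share of each tissue's FPKM (percent, bars from 0 to 100) held by the core genes, by genes at 300 FPKM in 1 to 3 tissues, by genes expressed in all tissues but below 300 FPKM in each, by other reference genes and by intergenic and repeat loci, 1 library per tissue. The core genes take 45.8% in ovary and 28.2% in the Malpighian tubules.

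Within a tissue the core genes were among the most abundant transcripts, as the rule requires. A rank is free of the scaling between tissues, but the place of 300 FPKM in each ranking is not. The lowest-ranking core gene was number 160 in ovary and number 417 in midgut. The median rank of the core genes among all genes was 77.5 in midgut, 63.5 in fat body, 85.0 in the Malpighian tubules and 58.5 in ovary. They made up 79 of the 100 most abundant genes in midgut, 89 in fat body, 71 in the Malpighian tubules and 94 in ovary. At the very top the tissues differed: the 10 most abundant genes held 1 core gene in midgut, 9 in fat body, 6 in the Malpighian tubules and 10 in ovary. Of all genes, 65 were in the top 100 of every tissue. Each of them is a core gene by the rule, since in each tissue 162 or more genes reached 300 FPKM.

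ASTEI06858 had the highest geometric mean. It stood at 13457 FPKM in midgut (bounds 13164 to 13754), 11939.9 in fat body, 3305 in the Malpighian tubules and 6495 in ovary. That made it the most abundant gene of fat body and ovary, number 7 in the Malpighian tubules and number 8 in midgut. Its main transcript is short, 508 bases in 3 exons (scaffold_00045, 468640 to 469638, minus strand). That transcript is an assembled one, and the annotated transcript reached at most 4.92 FPKM in any tissue. ASTEI01359 came next, at 6218 FPKM in midgut, 8198 in fat body, 3315 in the Malpighian tubules and 4089 in ovary. It ranked second in fat body and ovary, and its main transcript is longer, 2339 bases in 2 exons (scaffold_00005, 1468083 to 1471621, plus strand).

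The order of the core genes was similar from tissue to tissue. Spearman's correlation across the 116 genes was 0.884 between midgut and fat body, 0.818 between midgut and Malpighian tubules and 0.822 between midgut and ovary. The pair of fat body and Malpighian tubules had 0.752, the pair of fat body and ovary 0.893, and the correlation was 0.731 between Malpighian tubules and ovary. These are correlations across genes, which share their libraries and are no replicates, and the limit narrows the range of levels. Over all 6633 genes expressed in every tissue the pair of midgut and ovary had 0.460 and the pair of fat body and ovary 0.579. Midgut and Malpighian tubules had 0.817 over all these genes, and fat body and Malpighian tubules had 0.804, above the 0.752 of the core genes. Among the core genes the correlation of fat body with ovary (0.893) was close to that of midgut with fat body (0.884), and their order turned at limits of 100 and 200 FPKM and at 300 TPM. Over all these genes the highest was that of midgut and Malpighian tubules and the lowest that of midgut and ovary. The pairs were not tested against each other. Among the 10 highest core genes of each tissue, 4 genes were shared by all tissues and 18 genes appeared in any.

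A common shift separated the tissues. The median core gene stood at 3968 FPKM in midgut, 3788 in fat body, 1317 in the Malpighian tubules and 1788 in ovary. The lowest core gene lay between 305 and 337 FPKM in every tissue, and the highest at 13457 FPKM in midgut, 11939.9 in fat body, 6169 in the Malpighian tubules and 6495 in ovary. The level was lowest in the Malpighian tubules for 92 of the 116 genes and in ovary for 20, and 69 genes were highest in midgut and 35 in fat body. As TPM, the level was lowest in the Malpighian tubules for 84 genes, and 66 genes were highest in ovary, 33 in fat body, 13 in the Malpighian tubules and 4 in midgut. On the deposited scale, for 86 genes both midgut and fat body were above ovary and ovary was above Malpighian tubules. The counts of lowest and highest tissue and of this order have no share over all genes beside them. The members were chosen on these levels, so nothing is read from the counts.

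As a median of the gene-by-gene log2 differences, midgut exceeded ovary by 1.07 (95% order-statistic interval over genes 0.98 to 1.14), a fold of 2.10. Fat body exceeded ovary by 1.002 (0.97 to 1.04), and Malpighian tubules lay below ovary at -0.50 (-0.56 to -0.46). Midgut and fat body were close, with a median of 0.07 (0.036 to 0.11). These intervals cover the spread over the chosen genes only and give no error for a difference between tissues. Midgut exceeded Malpighian tubules by 1.54 and fat body exceeded them by 1.53, each close to a 2.9-fold difference. The authors' bounds did not overlap for 105 genes higher and 7 genes lower in midgut than in ovary, and for 22 genes higher and 93 lower in the Malpighian tubules than in ovary. Between midgut and fat body the bounds overlapped for 28 genes. These counts hold for deposited FPKM: 108 genes were higher in midgut than in ovary as FPKM and 18 as TPM, and 106 were higher in fat body than in ovary as FPKM and 44 as TPM. None of these counts was taken over all genes expressed in every tissue, so nothing is read from them.

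The 6633 genes expressed in all tissues did not share this shift on the deposited scale. Their median log2 difference was 0.055 for midgut over ovary, -0.081 for fat body over ovary and -0.12 for Malpighian tubules over ovary. The core genes thus stood 1.01 above the median gene in midgut over ovary, 1.08 above it in fat body over ovary and 0.38 below it (-0.38) in the Malpighian tubules over ovary. Rescaling to TPM moves core genes and other genes alike. With TPM the core medians turned to -0.43 for midgut over ovary and -0.05 for fat body over ovary, became -0.89 for Malpighian tubules over ovary, and turned to -0.37 for midgut over fat body. The medians over all genes became -1.44, -1.13 and -0.51 for midgut, fat body and Malpighian tubules over ovary. The median core gene had 3175 TPM in midgut, 4117 TPM in fat body, 2269.9 TPM in the Malpighian tubules and 4028 TPM in ovary. Whether core genes were higher in midgut than in ovary therefore depended on the scaling, and so did fat body against ovary and midgut against fat body. Malpighian tubules had the lowest median core level under both scalings. The distance to the median gene also depended on which genes it was taken from: against genes at 10 FPKM or more in every tissue it was 0.51 for midgut over ovary.

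**Figure D3:**
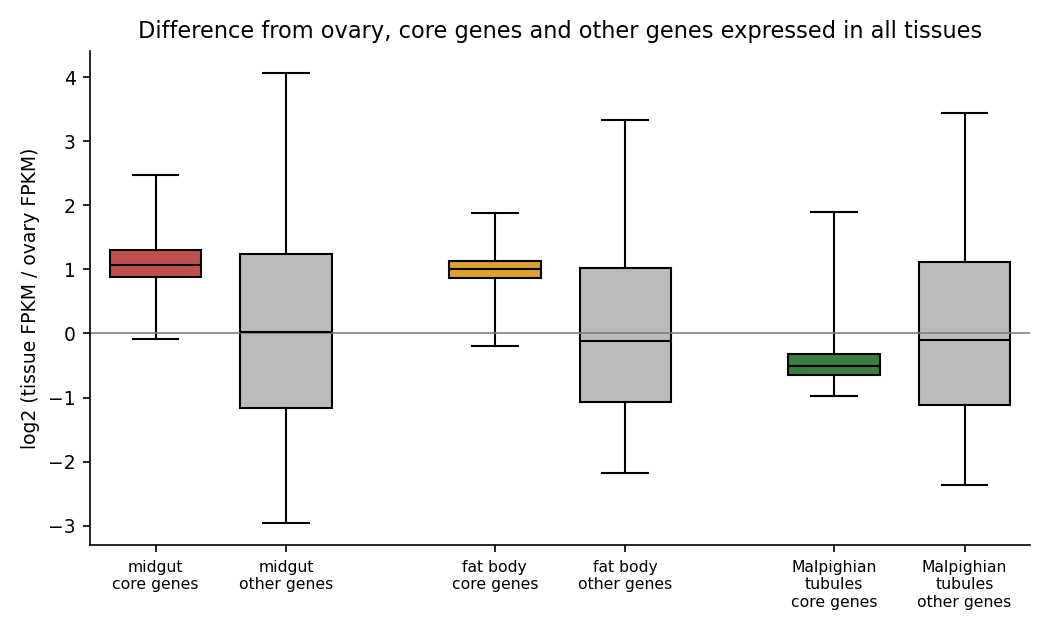
Log2 ratio of FPKM in midgut, fat body and Malpighian tubules to FPKM in ovary, for the core genes (coloured) and for the other genes at 1 FPKM or more in all tissues (grey), with boxes from the lower to the upper quartile, the median as a line and whiskers at the 5th and 95th percentile. The core boxes are narrow and centred at 1.07, 1.002 and -0.50, and the grey boxes are wide and centred near 0; with TPM each box would move by the same amount within a tissue, by -1.49 in midgut, -1.05 in fat body and -0.39 in the Malpighian tubules.

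Differences of at least 2-fold follow from this shift and from the rule, so nothing is read from their counts. With deposited FPKM, 68 core genes were at least 2-fold higher in midgut than in ovary, where 29.5% of all genes expressed in every tissue were, and 1 was at least 2-fold lower (27.8%). In fat body 59 were higher than in ovary (25.8%) and 1 was lower (26.1%). In Malpighian tubules 14 were higher than in ovary (26.6%) and 3 were lower (27.5%). Against Malpighian tubules, 91 were higher in midgut (15.3%) and 2 lower (14.4%), and 88 were higher in fat body (14.2%) and 3 lower (14.1%). Between midgut and fat body 5 were higher in midgut (18.0%) and 1 was lower (15.6%).

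Most members followed one pattern more closely than the genes expressed in every tissue did as a whole. The quartiles of the core log2 differences lay 0.41 apart for midgut over ovary, 0.27 for fat body over ovary and 0.32 for Malpighian tubules over ovary, against 2.40, 2.09 and 2.22 over all genes expressed in every tissue. When the median core level of each tissue was taken out, the remaining fold range between a gene's highest and lowest tissue had a median of 1.27 over the core genes. For the other 6517 genes, centred on the median of all expressed genes in the same way, it was 3.37. A range within 1.5-fold was found for 80 core genes (69.0%) and 7.29% of the others. Since the core genes set their own centre, and since the rule excludes genes that are low anywhere, these shares describe the set and are not a test of it. Levels also differed, with a median geometric mean of 2392 FPKM in the core set and 15.9 FPKM over all genes expressed in every tissue. Whether other genes of like level are as tight was not tested.

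Parted by their lowest level, the core genes gave a tight block and a loose remainder. The block, read from the values after they were seen, held the 84 genes with at least 900 FPKM in their lowest tissue. Of these, 81 stayed within a 2-fold range around the common shift, with a median range of 1.2-fold. Malpighian tubules were the lowest tissue for 80 of them. The block is most of the core set and so largely set the centre of these ranges. The split therefore describes the set and is not a test of it. The block's median gene stood at 4497 FPKM in midgut, 4309 in fat body, 1452 in the Malpighian tubules and 2075 in ovary, and the block alone held 31.8%, 40.0%, 22.9% and 41.4% of the FPKM of these tissues. A tightness of this kind was shown by ASTEI04933, which had 7072 FPKM in midgut, 6859 in fat body, 2405 in the Malpighian tubules and 3213 in ovary. These values lay 0.83, 0.86, 0.87 and 0.85 (log2) above the core median of their tissues. ASTEI01907 followed the same pattern at a lower level, with 4225 FPKM in midgut, 4062 in fat body, 1366 in the Malpighian tubules and 1949 in ovary, a range of 1.05-fold once the shift was removed.

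The 22 members between 300 and 500 FPKM in their lowest tissue had a median range of 4.55-fold around the shift, and 1 of them lay within 2-fold. The 10 members from 500 to 900 FPKM had a median range of 2.51-fold, and 3 lay within 2-fold. In the lowest group ovary was the lowest tissue for 12 genes, Malpighian tubules for 6, fat body for 3 and midgut for 1. These genes pass the limit but do not follow the pattern of the block, and a gene near the limit in 1 tissue has room to vary only upward in the others.

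**Figure D4:**
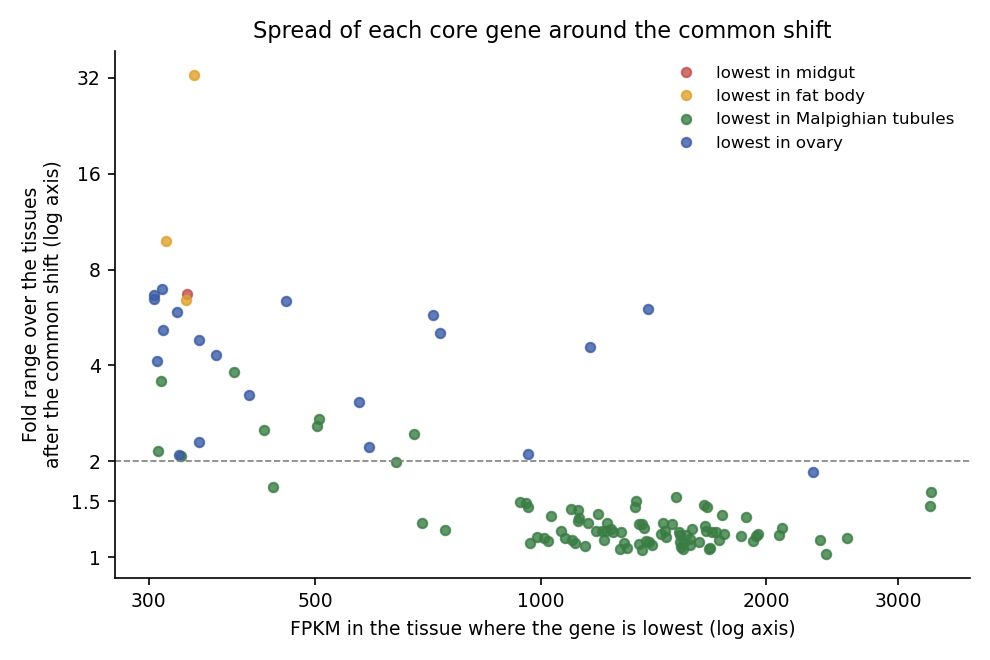
Fold range of each core gene over the tissues after the median core level of each tissue was removed (log axis), against its FPKM in the tissue where it is lowest (log axis), coloured by that tissue, with 1 point per gene. Of the 84 genes at 900 FPKM or more, 81 lie under the dashed line at 2-fold, and the genes between 300 and 500 FPKM reach 32.7-fold.

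Some members left the common pattern in the Malpighian tubules. Relative to its own median over tissues, and with the shift removed, a gene stood more than 2-fold above the pattern there in 14 cases, where 8.34% of all genes expressed in every tissue did so around the median of all genes, and more than 2-fold below it in 0 cases (3.38%). In ovary 2 members stood more than 2-fold above the pattern (1327 of all 6633 genes) and 5 below it (21.8%), in midgut 1 above (11.7%) and 1 below (9.32%), and in fat body 0 above (8.52%) and 3 below (5.47%). The limit keeps out genes that are low in a tissue, and the core median was lowest in the Malpighian tubules, so nothing is read from these counts. ASTEI05408 was the extreme, at 1258 FPKM in midgut, 345 in fat body, 3921 in the Malpighian tubules (bounds 3749.7 to 4091) and 545 in ovary, which put it 3.26 (log2) above the pattern in the Malpighian tubules. ASTEI01617 was also high there, at 339 FPKM in midgut, 431 in fat body, 782 in the Malpighian tubules and 312 in ovary. Both genes were highest in the Malpighian tubules on the deposited scale as well.

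ASTEI07742 was the gene furthest above the pattern in midgut. Its main transcript has 1 exon, and other isoforms with several exons enter its level. It had 11047 FPKM in midgut (bounds 9746 to 12348), 2309 in fat body, 2939 in the Malpighian tubules and 1164 in ovary. ASTEI00927 came after it, with 4392 FPKM in midgut, 1248 in fat body, 1331 in the Malpighian tubules and 305 in ovary. Its 14.4-fold span between midgut and ovary was the widest of the 116 genes in deposited FPKM. As TPM its span was 5.11-fold and that of ASTEI05408 was 18.05-fold. In the other direction, ASTEI04191 was lowest in midgut at 337 FPKM, with 724 FPKM in fat body, 506 FPKM in the Malpighian tubules and 1017 FPKM in ovary, and it lay 1.07 (log2) above the pattern in ovary. ASTEI09967, with 429 FPKM in midgut, 337 in fat body, 751 in the Malpighian tubules and 689 in ovary, lay 0.92 (log2) below the pattern in midgut (-0.92), although its lowest FPKM was in fat body.

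ASTEI01829 was the member furthest above the pattern in ovary, at 1.203 (log2). It had 469.9 FPKM in midgut, 428 in fat body, 390.1 in the Malpighian tubules and 771 in ovary, with a main transcript of 3234 bases. That transcript is an assembled one, and the annotated transcript reached at most 0.56 FPKM in any tissue. ASTEI06110 was low in fat body, at 778 FPKM in midgut, 316 in fat body (bounds 245 to 388), 1085 in the Malpighian tubules and 514 in ovary. No gene lay far below the pattern in the Malpighian tubules: the lowest values there were -0.39 for ASTEI05334 and -0.38 (log2) for ASTEI06858.

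ASTEI11711 and ASTEI12229 stood highest above the pattern in fat body and had nearly parallel levels. ASTEI11711 had 4392 FPKM in midgut, 6174 in fat body, 859.7 in the Malpighian tubules and 457 in ovary. ASTEI12229 had 3064 FPKM in midgut, 4079.7 in fat body, 638 in the Malpighian tubules and 328 in ovary. Both have 1 exon in their main transcript, and that of ASTEI11711 fills bases 1 to 566 of scaffold_13534. The whole level of ASTEI11711 came from this assembled transcript, and its annotated transcript stood at 0 FPKM in every tissue. Intergenic loci on 2 other small scaffolds, ANSTF.11827 (scaffold_14371, 1 to 698) and ANSTF.12051 (scaffold_17919, 1 to 603), showed the same profile, with 637 and 625 FPKM in the Malpighian tubules and 329 and 331 FPKM in ovary. Whether these are copies of 1 sequence that share reads was not tested, so the separate levels are uncertain. Any set of near-identical gene copies among the members would be uncertain in the same way.

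Overlap with other transcripts limits a few members. The main transcript of 10 core genes (8.62%) shared exon bases with an expressed transcript on the other strand, against 16.9% of the other genes expressed in every tissue, and 9 (7.76%, against 19.96%) with a transcript of another gene. Whether the libraries kept strand is not given in the sources used here. The shared stretches were short, from 1 base of the 612 bases of ASTEI03980 to 232 of the 2392 bases of ASTEI10101. ASTEI08607 (scaffold_00072, plus strand) and ASTEI08603 (minus strand) share 81 exon bases, of main transcripts of 1307 and 537 bases, and stood in nearly the same ratio everywhere. ASTEI08607 had 7721 FPKM in midgut, 4392 in fat body, 6169 in the Malpighian tubules and 1389 in ovary, and ASTEI08603 had 3862, 2216, 3055 and 718 FPKM in these tissues. ASTEI05408, the gene far above the pattern in the Malpighian tubules, shares 4 of its 667 bases with an opposite-strand transcript whose level was also highest there, at 3067 FPKM. The part of these overlaps in the levels was not tested. ASTEI08607, ASTEI08603, ASTEI03980 and ASTEI10101 were picked out for their overlap after their values were seen.

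The transcripts of the core genes were short. The main transcript, the one with the highest mean FPKM over tissues, had a median length of 751 bases (95% order-statistic interval 705 to 818), with quartiles of 631 and 1016 bases. Over all genes expressed in every tissue the median was 1809 bases (1762 to 1866). Under 1000 bases were 74.1% of the core transcripts, against 25.4% of the transcripts of all these genes. The core transcripts ranged from 255 to 3541 bases, and the longest belonged to ASTEI07428 (3541 bases, 5 exons) and ASTEI07645 (3511 bases, 2 exons). Length fell with level among the other genes too: the median was 2339 bases at a geometric mean of 1 to 10 FPKM, 1863 bases at 10 to 30, 1542 bases at 30 to 100, 1272 bases at 100 to 300 and 877 bases (706 to 1113) at 300 FPKM or more without reaching 300 in every tissue. The interval of these last 94 genes overlaps that of the core genes. Their median geometric mean was 459 FPKM, against 2392 FPKM in the core set, so they are not matched to it in level. Length also enters FPKM, because short transcripts get a small effective length. When the deposited count signal was divided by the plain transcript length instead, 113 genes met the limit.

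The length of the annotated transcript was a multiple of 3 for 58 of the 116 core genes, for 52.1% of the 94 other genes at a geometric mean of 300 FPKM or more and for 89.9% of all genes expressed in every tissue. The median annotated length was 733 bases in the core set and 776.5 bases in those 94 genes, against 1380 bases in all genes expressed in every tissue. Whether the annotated lengths cover the same parts of a transcript in these sets was not tested. Core transcripts had a median of 3 exons (quartiles 2 and 4, range 1 to 8), against 4 over all genes expressed in every tissue (quartiles 2 and 6, up to 30). From 2 to 4 exons were found in 81.9% of the core transcripts, against 78.7% of those of the 94 other abundant genes, whose median was also 3 exons, and 54.9% of all. There was a single exon in 12 core genes (10.3%), against 7.37%. Introns of multi-exon annotated core genes summed to a median of 595 bases, against 465 bases in all genes.

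Core genes used few isoforms. Their 180 transcripts made 1.55 per gene, with at most 4 for a gene, against 2.24 per gene over all genes expressed in every tissue. A single transcript was assembled or annotated for 67 core genes (57.8%), against 40.3% of all. An isoform was counted as expressed where it reached 1 FPKM and 10% of its gene in a tissue. By this rule 26 core genes had 2 or more expressed isoforms (22.4%, 95% Wilson interval 15.8 to 30.8), against 49.1% (47.9 to 50.3) of all genes expressed in every tissue. Of the 94 other genes at a geometric mean of 300 FPKM or more, 39.4% (30.1 to 49.5) had 2 or more, an interval that just overlaps that of the core genes, and of the 445 genes at 100 to 300 FPKM, 47.0% (42.4 to 51.6) had. Within the core set the upper 58 genes by level had 8 such genes and the lower 58 had 18 (31.0%, 20.6 to 43.8). The interval of the lower 58 covers the 39.4% of the 94 other genes. The median geometric mean was 1455 FPKM in the lower 58 and 459 FPKM in those 94 genes. Whether the contrast holds at equal level was not tested. Intervals here cover counting of genes only, and isoform levels were the estimates of the authors.

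The main isoform was the same in all tissues for 112 core genes (96.6%, 91.5 to 98.7), against 79.2% (78.2 to 80.2) of all genes expressed in every tissue and 88.3% (80.2 to 93.3) of the 94 other abundant genes. Among genes with several transcripts, it was 45 of 49 core genes (91.8%), 37 of 48 of the other abundant genes (77.1%) and 65.2% of all. No core gene changed its main isoform with at least 60% of the gene in both tissues, where 5.46% of all genes expressed in every tissue did. Among genes nearer in level, 3.19% of the 94 other abundant genes did and 2.70% of the 445 genes at 100 to 300 FPKM. A count of 0 of 116 allows up to 3.21% by the Wilson interval. In 82 core genes (70.7%) the main transcript was the annotated one, against 73.4% of the 94 other abundant genes and 53.2% of all. The annotated transcripts carried 71.8% of the core FPKM in midgut, 71.0% in fat body, 69.8% in the Malpighian tubules and 71.7% in ovary, so the mix of annotated and assembled forms hardly differed between tissues.

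The largest change of isoform share was in ASTEI01617 (scaffold_00005, plus strand). Its assembled isoform ANSTF.1553.4, which begins at 4131954, held 17.4% of the gene in midgut, 6.50% in fat body, 12.4% in the Malpighian tubules and 49.6% in ovary. The isoform ANSTF.1553.1, which begins at 4122654, held 64.9%, 77.9%, 74.0% and 40.9% in the same tissues. Both have 7 exons. In ASTEI06110 (scaffold_00036, plus strand), ANSTF.5698.1 held 8.25% in midgut, 16.5% in fat body, 6.68% in the Malpighian tubules and 40.8% in ovary, while ANSTF.5698.2 held 43.6%, 39.1%, 45.5% and 11.0%. The annotated isoform kept between 44.4% and 48.2% everywhere. In both genes ovary was the tissue with the most different shares, and the isoforms carry different labels for the transcription start.

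**Figure D5:**
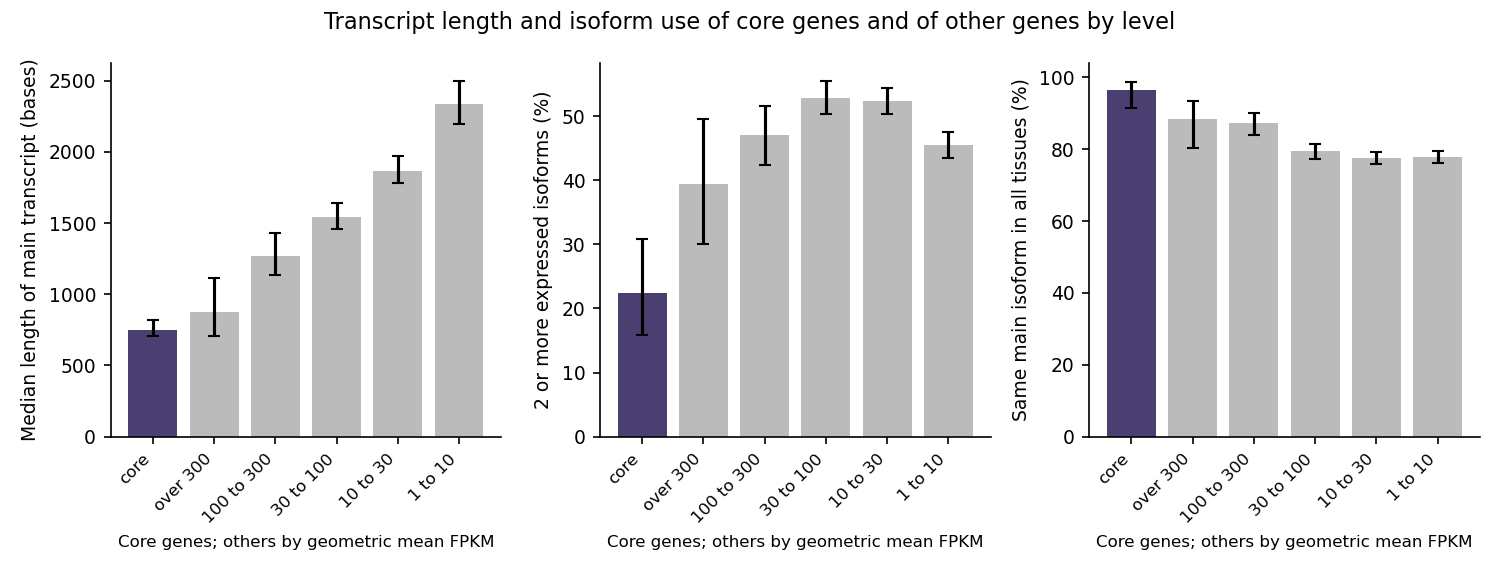
Median length of the main transcript (bases, with 95% order-statistic intervals), share of genes with 2 or more expressed isoforms and share of genes with the same main isoform in all tissues (percent, with 95% Wilson intervals), for the core genes (dark) and for the other genes expressed in all tissues by geometric mean FPKM (grey). Length is near that of the other abundant genes (751 and 877 bases), while 22.4% of core genes and 39.4% of those genes have several expressed isoforms. Levels are not matched: the median geometric mean is 2392 FPKM in core genes and 459 FPKM in those genes.

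The core genes were spread over the assembly. They lay on 67 of the 988 scaffolds that carry a reference gene, with at most 7 on 1 scaffold, which carries 335 genes, and 60 of them lay on the plus strand. Next to another core gene were 12 of them (10.3%), in 6 pairs, against 2.38% of the other genes expressed in every tissue. Of the 6 pairs, 5 were head to head and 1 tail to tail, and 4 were less than 1000 bases apart. ASTEI00706 and ASTEI00707, which are 466 bases apart, both lay below the 900 FPKM of the block in their lowest tissue. ASTEI00706 stayed within a 1.67-fold range around the shift and ASTEI00707 within 2.21-fold. ASTEI00706 had 1314 FPKM in midgut, 1861 in fat body, 439 in the Malpighian tubules and 527 in ovary, and ASTEI00707 had 1952, 2766, 683 and 590.1 FPKM in these tissues. This pair was chosen after its values were seen. With any neighbour, 42 core genes (36.2%) were head to head at under 1000 bases between annotated starts, against 19.6% of the other genes expressed in every tissue.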

How the data were processed

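RNA of 4 tissues, 1 library each, was analysed from the deposited tables. The submitters' processing notes name Cuffdiff, StringTie 1.2.1, HISAT2 and CASAVA 1.8. The versions of HISAT2 and Cuffdiff and the genome build are not given in the sources used here. Per the file headers, the deposited FPKM of each transcript have lower and upper bounds, and the authors combined both lanes. The table of counts deposited by the authors holds a rescaled signal, since low values of transcripts alone in their gene were whole sums of 2 steps, 1 per lane, within 0.1% in 98.3% to 99.0% of cases. Dividing by the mean step gave the estimated fragments. A raw count test could not be used.

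Class codes, exons and 1-based coordinates on the assembly's scaffolds came from the deposited annotation, matched by transcript. Gene levels and bounds are sums over the annotated class and the classes of shared junctions, same-strand exon overlap and single exons. The other lists were not used, since the FPKM table holds their transcripts. TPM divides by the sum over genes, intergenic and repeat loci. Differences are the earlier over the later of midgut, fat body, Malpighian tubules and ovary, with no pseudocount. Python 3.11.15, pandas 2.3.3, numpy 2.4.6 and scipy 1.17.1 were used, and the code was tested on simulated data. The members and lists were chosen with earlier results of these data known. Without gene names, at most 2 identifiers are named for each of the following: highest level, furthest from the pattern per tissue and direction, closest to it, nearest the limit, largest isoform change and longest transcript. Other genes and loci were named after their values were seen. Alternatives were other limits, TPM, classes, bounds, lengths, tissues in the rule, denominators, background filters, pseudocounts and isoform limits.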

Additional observations from a re-analysis of the deposited data

Results flagged for a closer look

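Signal at the level of the core genes was found outside the reference genes. By the same limit, 7 intergenic loci stood at 300 FPKM or more in every tissue. ANSTF.5135, ANSTF.8499 and ANSTF.7100 have 3 exons each and ran close to the common pattern. ANSTF.5135 had 5301 FPKM in midgut, 4836 in fat body, 1504 in the Malpighian tubules and 2560.4 in ovary. ANSTF.8499 had 4409 FPKM in midgut, 4217 in fat body, 1457 in the Malpighian tubules and 2021 in ovary, and ANSTF.7100 had 3899, 3108, 1128 and 1536 FPKM in these tissues. ANSTF.1393, with 1 exon, had 7577 FPKM in midgut, 4495 in fat body, 3383 in the Malpighian tubules and 606 in ovary, and ANSTF.3809, with 3 exons, had 2204, 1699, 1244 and 786 FPKM in these tissues, so both stood nearer to midgut in the Malpighian tubules than the core genes did. ANSTF.11827 and ANSTF.12051 had the profile of ASTEI11711. These loci were named after their values were seen.

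A transcript on the strand opposite to ASTEI05408, ANSTF.5043.1, reached 3067 FPKM in the Malpighian tubules, with 894 FPKM in midgut, 280.2 FPKM in fat body and 208 FPKM in ovary, and it entered no gene level. ASTEI08034 had no midgut estimate and was left out of the core set, with 1066 FPKM in fat body, 893 in the Malpighian tubules and 378 in ovary. No tissue had replicates to compare.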

How the results depend on the processing

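Values below run in the order midgut, fat body, Malpighian tubules and ovary. At a limit of 100 FPKM the set held 271 genes, with shares of 45.01%, 52.1%, 38.0% and 53.9%, a median length of 936 bases and 33.6% of genes with 2 or more expressed isoforms. Core median log2 differences were then 0.86 for midgut over Malpighian tubules, 0.97 for midgut over ovary, 0.58 for fat body over Malpighian tubules, 0.93 for fat body over ovary and -0.37 for Malpighian tubules over ovary. Less the median of all genes they were 0.72, 0.92, 0.52, 1.01 and -0.25. Spearman's correlation was 0.715 for midgut with ovary, 0.872 for fat body with Malpighian tubules and 0.782 for fat body with ovary. At 200 FPKM the shares were 38.4%, 47.6%, 31.5% and 48.4%, and midgut and fat body exceeded Malpighian tubules by 1.45 each, or by 1.31 and 1.40 less the median of all genes. At 500 FPKM the shares were 33.4%, 41.9%, 24.8% and 43.4%, and 98.9% of genes had the same main isoform. At 1000 FPKM the shares were 30.5%, 38.3%, 21.9% and 39.6%, 15.4% of genes had 2 or more isoforms and 98.7% the same main isoform. Midgut over Malpighian tubules was then 1.62, or 1.48 less the median of all genes, and the correlation was 0.756 for midgut with fat body and 0.663 for midgut with ovary. The limit of 900 FPKM, added after seeing the data, gave 84 genes, shares of 31.8%, 40.0%, 22.9% and 41.4%, a correlation of 0.703 for midgut with ovary and the same main isoform in 98.8%.

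Scaling reversed 3 of the 6 core median differences. As TPM, with the same members, midgut over fat body was -0.37, midgut over ovary -0.43 and fat body over ovary -0.0495, with 0.43 for midgut over Malpighian tubules, 0.87 for fat body over Malpighian tubules, -0.89 for Malpighian tubules over ovary and, less the median of all genes, 1.03 for fat body over ovary. With members chosen at 300 TPM (157 genes) these were -0.33, -0.36 and -0.011, with 0.34, 0.78 and -0.84. Midgut and fat body over Malpighian tubules were then 1.28 and 1.39 less the median of all genes, and the shares were 41.4%, 48.3%, 32.6% and 48.0%. In both TPM settings the background genes were those at 1 TPM or more in every tissue. With the same members and the background kept at 1 FPKM or more, fat body over ovary stays at 1.08 less the background median. With the annotated class only (79 genes), the shares were 25.2%, 31.1%, 19.0% and 31.8%, and less the median of all genes midgut over Malpighian tubules was 1.32, midgut over ovary 0.86 and fat body over ovary 0.95. Shares of the fragment signal were 24.0%, 29.0%, 15.7% and 24.4%, and with all transcripts as the denominator that of Malpighian tubules was 27.2%. Without the ovary in the rule 183 genes qualified. Against background genes at 0.1 FPKM or more, the core genes stood 0.082 above the median of all genes for midgut over fat body, which reversed that difference, 1.495 above it for midgut over Malpighian tubules and 1.14 for midgut over ovary. Against background genes at 10 FPKM or more, the distances were -0.14 for midgut over fat body, 1.24 for midgut over Malpighian tubules, 0.51 for midgut over ovary, 0.68 for fat body over ovary and -0.70 for Malpighian tubules over ovary. With a change of main isoform counted only at 60% of the gene in both tissues, 100% of core genes had the same one. Beyond the change of background genes under TPM, the cause was not tested for any of these. In the other 186 comparisons of a value with its alternative, the value kept its direction and stayed within its interval, within 1.5-fold for a count or within a chosen tolerance of 0.1 for a correlation. The order of the 2 highest correlations turned: midgut with fat body exceeded fat body with ovary at 100 FPKM (0.891 and 0.782), at 200 FPKM (0.929 and 0.882) and at 300 TPM (0.897 and 0.888).

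No paired analysis was possible because each tissue has 1 library, and for the same reason none was left out. The missing replicates, the scaling between tissues, reads shared with overlapping or repeated genes and the absence of gene names limit these values.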
